A study of Rattus norvegicus with 6 samples.

Results

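Edn3, Nppa, Nos3 and Gucy1a1 encode proteins of the hormone and gas signals that set the tone of blood vessels. They were described here as the 4 loci of the rat brain transcriptome whose reference gene name was one of these symbols, among 24744 loci, of which 8336 carried a reference gene name. PolyA RNA of the whole brain had been sequenced in 6 libraries, 1 from each of 3 BN-Lx/CubPrin and 3 SHR/OlaIpcvPrin rats, all of them naive males of inbred strains. SHR is the spontaneously hypertensive rat, and BN-Lx is a Brown Norway strain with normal blood pressure that carries the Lx mutation. The labels gave no age and no blood pressure reading, and the comparison between strains rests on 3 rats each.

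Endothelin-3, the product of Edn3, is a short peptide that acts through endothelin receptors and is also known for its part in neural crest development. Nppa encodes atrial natriuretic peptide, a hormone made mostly in the heart atria that lowers blood pressure by raising cyclic GMP (cGMP) through a membrane receptor. Nos3 encodes the endothelial nitric oxide synthase of blood vessels. Nitric oxide binds soluble guanylate cyclase, a pair of an alpha and a beta subunit that also makes cGMP, and Gucy1a1 encodes its alpha1 subunit, which is present in vascular smooth muscle and in neurons, among them those of the striatum.

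None of the 4 genes passed the test between strains. On the log2 scale SHR stood above BN-Lx by 0.65 for Edn3, 0.64 for Nppa and 0.69 for Gucy1a1, and the difference for Nos3 was -0.14. The test was edgeR's quasi-likelihood test over 14471 genes, with a gene called at a Benjamini-Hochberg adjusted p of 0.05 or less. It called 0 of the 4, where 1.02% of all genes tested were called, 0.504% as higher in SHR and 0.511% as lower. DESeq2 also called 0 of 4, where it called 3.76% of all genes. At an unadjusted p of 0.05 or less each tool had 1 of the 4, Edn3, beside 10.2% of all genes with edgeR and 12% with DESeq2. With 3 rats a strain and this spread, the 95% intervals were wide, and a missed threshold does not show that the strains were alike.

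The total of expected counts per library ran from 11747048 to 41333078. Library SHR 1 and library BN-Lx 3 were unlike the rest of their strain. The chi-square per degree of freedom over genes was 11.97 between BN-Lx 1 and 2 and 10.47 between SHR 2 and 3, and it ran from 84.2 to 154.4 for the pairs that held SHR 1 or BN-Lx 3. The results below are therefore also given without those libraries. All 4 genes passed the filter of 50 counts in 2 of the 3 libraries of a strain. Edn3 and Nppa passed it through SHR alone, since only 1 BN-Lx library reached 50 counts for either gene.

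Edn3 lies at chr3:172856733-172881236 of rn6, on the plus strand (locus STRG.15585, ENSRNOG00000007477). Its expected counts were 128, 36 and 46 in BN-Lx 1 to 3 and 267, 123 and 103 in SHR 1 to 3. Scaled to library size with TMM factors (CPM), the levels were 3.97, 3.14 and 3.54 in BN-Lx and 6.20, 5.83 and 4.72 in SHR. Every SHR library was above every BN-Lx library. The means were 3.55 ± 0.414 CPM (SD, n = 3) in BN-Lx and 5.58 ± 0.770 CPM (SD, n = 3) in SHR.

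That is 1.57-fold higher in SHR, with a 95% interval from 1.10 to 2.25, or a log2 fold change of 0.65 (SE 0.21). The edgeR test gave an unadjusted p of 0.0218 and an adjusted p of 0.358, so Edn3 was not called. The estimate varied little with the libraries, but the unadjusted edgeR p did not stay below 0.05. It was 0.0740 without BN-Lx 2, 0.0702 without SHR 2 and 0.0516 without SHR 1. Without BN-Lx 1, BN-Lx 3 or SHR 3 it was 0.0370, 0.0384 and 0.0280. The estimate was 0.54 without both SHR 1 and BN-Lx 3. There the unadjusted edgeR p was 0.0496, larger than with all libraries. The adjusted p was 0.114, in a fit that called 28.8% of all genes. Of all genes tested, 10.97% had a larger absolute log2 fold change than Edn3.

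**Figure D1:**
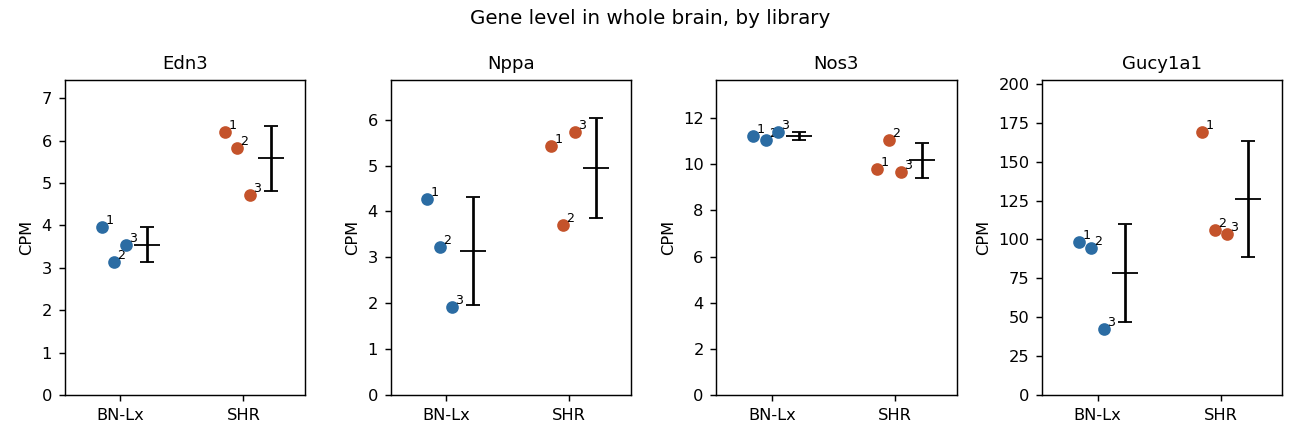
Levels of Edn3, Nppa, Nos3 and Gucy1a1 in CPM (TMM-scaled, axes from 0) in each library (the digit is the replicate), and beside them the strain mean with a bar of 1 SD over its 3 libraries. The strains did not overlap for Edn3 and Gucy1a1, they overlapped for Nppa, and for Nos3 the lowest BN-Lx library lay just above the highest SHR library.

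The Edn3 locus held 2 transcripts. The reference transcript, STRG.15585.1, has 5 exons and 1908 exonic bases. The second, STRG.15585.2, is a single exon of 655 bases that starts 131 bases past the end of the reference transcript and matched no reference transcript. It held 39.5% ± 6.15 (SD, n = 3) of the locus counts in BN-Lx and 32.0% ± 5.26 (SD, n = 3) in SHR, and these ranges overlapped. The difference in the share of the reference transcript did not pass an exact two-sided permutation test (p = 0.3, 0.75 after adjustment over 5 such shares and ratios, where 3 against 3 libraries cannot go below 0.1).

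The reference transcript alone showed the same order of strains as the locus. Its levels were 2.38, 1.74 and 2.45 CPM in BN-Lx and 4.07, 4.33 and 3.12 CPM in SHR, with no overlap. The log2 fold change was 0.81 (SE 0.34), and with an edgeR p of 0.0558 it missed the isoform threshold of an unadjusted p of 0.001, which 1% of the 32348 isoforms tested passed. STRG.15585.2 had too few counts to be tested. The single exon matters for the level per length. In TPM, the transcript abundance corrected for length and scaled to the same sum in every library, it made up 5.76 ± 0.647 (SD, n = 3) of the 8.29 ± 0.660 (SD, n = 3) of the locus in BN-Lx, and the reference transcript 2.54 ± 0.482 (SD, n = 3).

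Nppa lies at chr5:164808323-164809705 of rn6, on the plus strand (STRG.22829, ENSRNOG00000008176), with 1 transcript of 3 exons. Its expected counts were 138, 37 and 25 in BN-Lx and 234, 78 and 125 in SHR. The levels were 4.27, 3.23 and 1.92 CPM in BN-Lx and 5.43, 3.70 and 5.73 CPM in SHR. BN-Lx 1 was above SHR 2, so the strains overlapped in CPM. In TPM they did not overlap, although only just, with 11.43, 8.99 and 5.82 in BN-Lx and 15.46, 11.56 and 17.09 in SHR.

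The means were 3.14 ± 1.18 CPM (SD, n = 3) in BN-Lx and 4.95 ± 1.10 CPM (SD, n = 3) in SHR. The log2 fold change was 0.64 (SE 0.35), with a 95% interval from -0.21 to 1.49 and an edgeR adjusted p of 0.616. Without BN-Lx 3, the library with only 25 counts, the log2 fold change was 0.39, and without both SHR 1 and BN-Lx 3 it was 0.30. None of the 9 listed heart muscle markers was among the named loci, so these markers were not analysed here.

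Nos3 lies at chr4:7320668-7342410 of rn6, on the minus strand (STRG.15928, ENSRNOG00000009348). Its expected counts were 362, 127 and 148 in BN-Lx and 423, 233 and 211 in SHR. The levels were 11.2, 11.1 and 11.4 CPM in BN-Lx and 9.82, 11.04 and 9.67 CPM in SHR. In CPM the lowest BN-Lx library, at 11.07, lay just above the highest SHR library, at 11.04. In TPM the strains overlapped.

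Nos3 was the steadiest of the 4 genes. Its coefficient of variation over all 6 libraries was 7.05%, against 27.2% for Edn3, 35.1% for Nppa and 39.5% for Gucy1a1. The mean was 11.2 ± 0.162 CPM (SD, n = 3) in BN-Lx and 10.2 ± 0.754 CPM (SD, n = 3) in SHR. The log2 fold change was -0.14 (SE 0.14), with a 95% interval from -0.48 to 0.20 and an edgeR adjusted p of 0.792. The summed level of 10 endothelial markers, out of 20 listed, ran from 297 to 357 CPM in BN-Lx and from 264 to 323 CPM in SHR, which overlapped, with none of the 10 at 0 in any library. Their median log2 fold change was -0.09, and 4 of the 10, Tek, Tie1, Slc2a1 and Ocln, had a positive one. The lowest was that of Vwf. EdgeR called none of the 10, where 1.02% of all genes were called. At an unadjusted p of 0.05 or less it had 2, beside 10.2% of all genes. DESeq2 called Vwf alone (adjusted p = 0.00308), where it called 3.76% of all genes. Vwf (von Willebrand factor) was 66.8 ± 8.41 CPM (SD, n = 3) in BN-Lx and 36.0 ± 7.64 CPM (SD, n = 3) in SHR and was not called by edgeR (adjusted p = 0.127). In whole brain, fewer cells of a type and less RNA per cell cannot be told apart.

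The Nos3 locus held 5 transcripts with 2 different 3′ ends. STRG.15928.1 is the reference transcript of 26 exons, and the other 4 ended 1240 bases earlier. STRG.15928.2 had 26 exons, the reference start and no reference intron inside an exon. It had 4168 exonic bases, against 5383 in the reference transcript, and its splice sites were not compared with those of the reference. STRG.15928.3, STRG.15928.4 and STRG.15928.5 started 4014, 4448 and 5295 bases inside the reference start, and held 2, 1 and 2 reference introns inside an exon. No transcript of the 4 genes came from aptardi, the program with which the study added 3′ ends.

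The reference 3′ end held little of the Nos3 signal in either strain. It had 12.8% ± 5.56 (SD, n = 3) of the locus counts in BN-Lx and 12.9% ± 6.61 (SD, n = 3) in SHR. The spliced transcript with the earlier end, STRG.15928.2, held 50.8% ± 11.8 (SD, n = 3) and 47.6% ± 6.98 (SD, n = 3). Transcripts with a reference intron inside an exon held 56.1, 24.8 and 28.0% in BN-Lx and 39.2, 39.2 and 40.0% in SHR, so the SHR libraries lay close together inside the range of BN-Lx. None of the differences in these shares passed the exact permutation test (p of 1, 0.8 and 1).

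STRG.15928.2 and STRG.15928.5 had enough counts to be tested. Their log2 fold changes were -0.23 (SE 0.31, edgeR adjusted p = 0.894) and -0.07 (SE 0.56, edgeR adjusted p = 0.986). The usage test of edgeR, which asks whether transcripts of a locus shift against each other, did not call Nos3 (adjusted p = 1), where 4.37% of 7742 loci were called. BN-Lx 2 had no count for STRG.15928.3 and STRG.15928.4. Since RSEM divides reads among 5 largely identical transcripts, the division within the locus is less certain than its total.

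**Figure D2:**
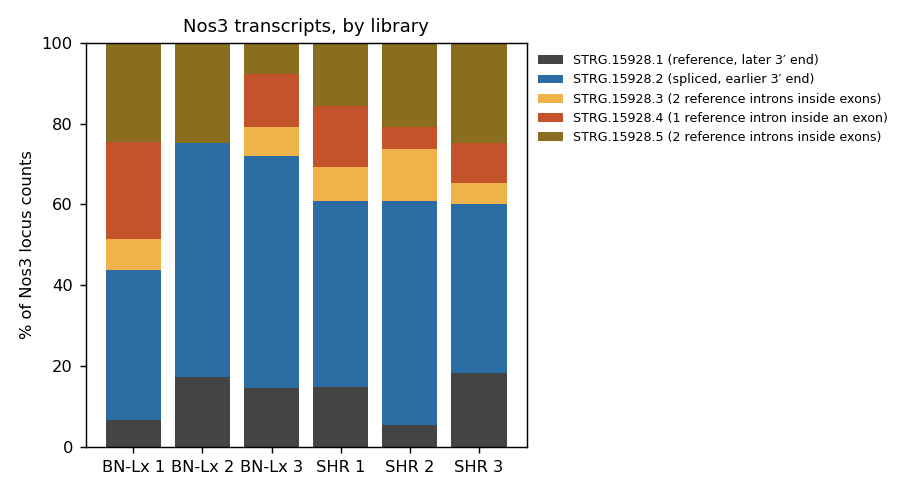
Share of the Nos3 locus counts given to each of its 5 transcripts, in percent, as stacked bars for the 6 libraries. The reference transcript with the later 3′ end took between 5.53 and 18.3% in every library, and the spread between libraries of a strain was larger than the difference between strains.

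Gucy1a1 lies at chr2:181045703-181102918 of rn6, on the minus strand (STRG.9918, ENSRNOG00000012302), with 1 transcript of 9 exons. Its expected counts were 3172, 1085 and 547 in BN-Lx and 7279, 2236 and 2253 in SHR. The levels were 98.3, 94.6 and 42.1 CPM in BN-Lx and 169, 106 and 103 CPM in SHR. The strains did not overlap, but BN-Lx 1 and 2 lay close below SHR 2 and 3, while BN-Lx 3 was far below and SHR 1 far above the other 4 libraries.

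The means were 78.3 ± 31.4 CPM (SD, n = 3) in BN-Lx and 126 ± 37.2 CPM (SD, n = 3) in SHR. The log2 fold change was 0.69 (SE 0.37), with a 95% interval from -0.20 to 1.57 and an edgeR adjusted p of 0.605. It was 0.39 without BN-Lx 3, 0.41 without SHR 1 and 0.12 without both (SE 0.07, edgeR adjusted p = 0.226). The fit without both called 28.8% of all genes. Counted by library ranges in CPM, 2 of the 4 genes, Edn3 and Gucy1a1, were higher in SHR without overlap, where 8.97% of all genes were. Nos3 was the 1 gene lower without overlap, where 8.49% of all genes were.

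SHR 1 also stood apart in genes of the striatum, the forebrain region with dense Gucy1a1, while BN-Lx 3 was low in only some of them. The summed level of 6 striatal markers, out of 12 listed, was 447, 412 and 195 CPM in BN-Lx and 1321, 319 and 231 CPM in SHR, with none at 0. Drd2, the dopamine D2 receptor, was 13.1, 12.5 and 11.2 CPM in BN-Lx and 79.3, 7.49 and 4.54 CPM in SHR. For Drd2, BN-Lx 3 was close to BN-Lx 1 and 2. Gucy1a1 was highest in the library with the highest striatal sum and lowest in the library with the lowest, and the part of the striatum in the difference between strains was not tested.

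**Figure D3:**
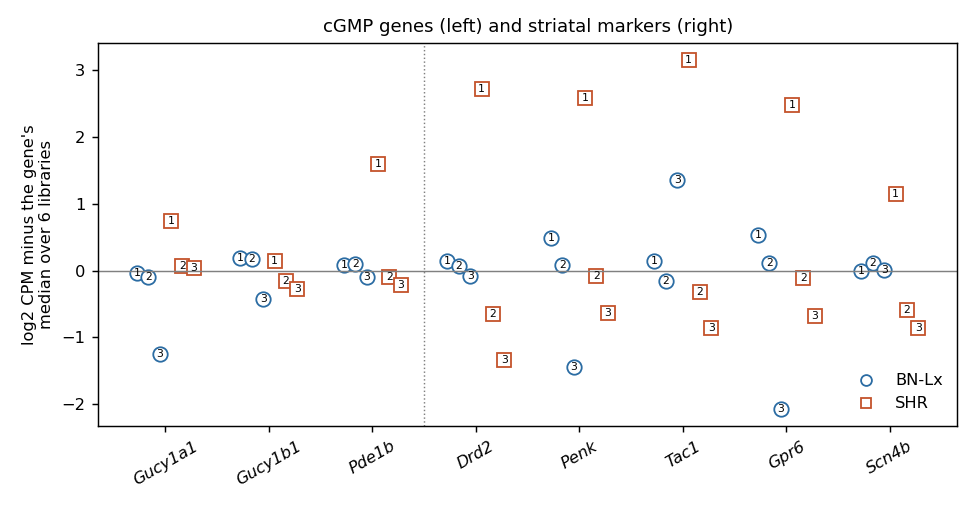
Gucy1a1, Gucy1b1 and Pde1b (left of the dotted line) and 5 of the striatal markers (right), each as log2 CPM minus its own median over the 6 libraries, with circles for BN-Lx, squares for SHR and the replicate number inside. SHR 1 was the highest library for Gucy1a1 and for all 5 markers shown, and BN-Lx 3 was the lowest for Gucy1a1, Penk and Gpr6, but not for Drd2, Tac1 or Scn4b.

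Mural cells, the smooth muscle and pericytes of vessels, also use soluble guanylate cyclase. The summed level of 4 mural markers, out of 12 listed, ran from 42.1 to 56.0 CPM in BN-Lx and from 60.5 to 69.4 CPM in SHR, without overlap and with none at 0. Within it Notch3 was 13.8 ± 3.27 CPM (SD, n = 3) in BN-Lx and 24.7 ± 2.65 CPM (SD, n = 3) in SHR (edgeR adjusted p = 0.190). Notch3 had the largest log2 fold change of the 4, at 0.85 (SE 0.20), and the sum was not examined without it. The strains overlapped for Tagln and Cspg4. Kcnj8, also among the 4, passed the count filter through SHR alone. EdgeR called none of the 4, where 1.02% of all genes were called. At an unadjusted p of 0.05 or less it had 1, beside 10.2% of all genes. DESeq2 called Notch3 alone (adjusted p = 0.0149), where it called 3.76% of all genes. Des and Cnn1, named but with too few counts to be tested, had means of 2.96 and 0.231 CPM in BN-Lx and 2.32 and 0.224 CPM in SHR. By library the mural sum was 48.6, 42.1 and 56.0 CPM in BN-Lx and 69.3, 69.4 and 60.5 CPM in SHR. BN-Lx 3 had the highest sum of BN-Lx and the lowest Gucy1a1. Edn3 and Gucy1a1, like the sum, were higher in every SHR library than in any BN-Lx library. The part of mural cells in the levels of Edn3 and Gucy1a1 was not tested.

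The partner subunit had nearly the same mean level in both strains. Gucy1b1, the beta1 subunit, lies 19678 bases from Gucy1a1 on the same strand. Its level was 123 ± 21.8 TPM (SD, n = 3) in BN-Lx and 123 ± 13.8 TPM (SD, n = 3) in SHR, against 35.9 ± 13.0 TPM and 61.3 ± 15.3 TPM (SD, n = 3 each) for Gucy1a1. The log2 fold change of Gucy1b1 was -0.09 (SE 0.21, edgeR adjusted p = 0.918).

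The ratio of Gucy1a1 to Gucy1b1 in TPM, chosen after the values were seen, was 0.324, 0.316 and 0.212 in BN-Lx and 0.577, 0.443 and 0.469 in SHR. The strains did not overlap, and BN-Lx 1 and 2 remained below SHR 2 and 3 when the libraries that stand apart were set aside. The exact two-sided permutation test gave p = 0.1, the smallest it can give here, and 0.5 after adjustment. Without SHR 1 and BN-Lx 3, Gucy1b1 was lower in SHR by edgeR, with a log2 fold change of -0.40 (SE 0.07, adjusted p = 0.0121), and 28.8% of all genes were called in that fit. Gucy1a2, the alpha2 subunit, was at 4.66 ± 0.670 TPM (SD, n = 3) in BN-Lx and 8.82 ± 5.38 TPM (SD, n = 3) in SHR (edgeR adjusted p = 0.666).

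**Figure D4:**
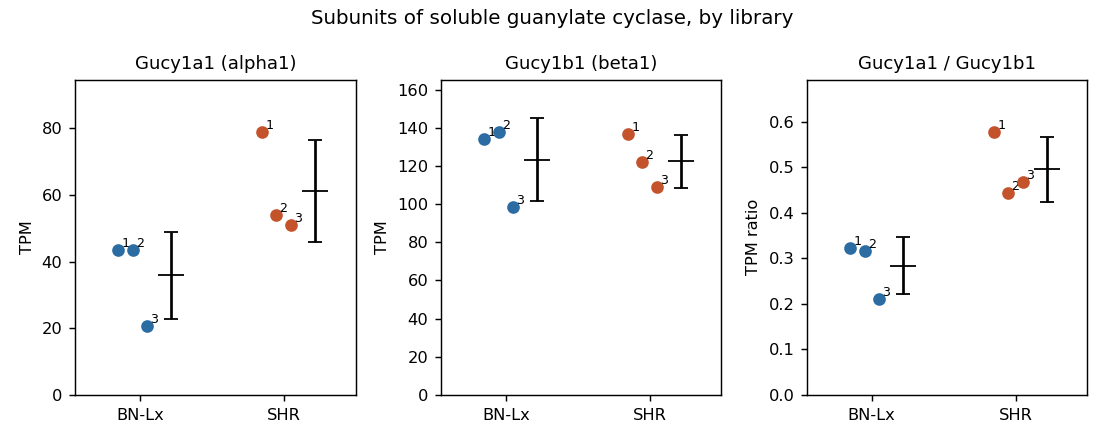
Levels of Gucy1a1 and Gucy1b1 in TPM and their ratio in each library (the digit is the replicate), and beside them the strain mean with a bar of 1 SD over its 3 libraries. The strains did not overlap for Gucy1a1 and for the ratio, from 0.212 to 0.324 in BN-Lx and from 0.443 to 0.577 in SHR, while they overlapped for Gucy1b1.

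Ranked per length in TPM, Gucy1a1 was the highest of the 4 genes in both strains, and 73.3% of all genes tested had a lower mean. Nppa followed with 8.75 ± 2.81 TPM in BN-Lx and 14.7 ± 2.84 TPM in SHR (SD, n = 3 each), and Edn3 with 8.29 ± 0.660 TPM and 12.5 ± 1.57 TPM (SD, n = 3 each). The ranges of Nppa and Edn3 overlapped in both strains, so their order was not resolved. Nos3 was lowest, at 5.83 ± 0.336 TPM in BN-Lx and 5.57 ± 0.656 TPM in SHR (SD, n = 3 each), and it overlapped Nppa in BN-Lx. With its reference transcript alone, Edn3 was below the whole Nos3 locus in BN-Lx. In SHR its mean was lower too, at 4.72 ± 0.845 TPM (SD, n = 3), but the ranges overlapped. The median over all genes tested was 20.6 TPM.

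The wider pathways were read from 5 lists of 88 symbols, on endothelin, natriuretic peptides, nitric oxide synthesis, guanylate cyclases with cGMP, and the renin-angiotensin system. Of these, 36 were named in the annotation and 35 loci were tested. Ccdc136, which stood in the cGMP list by mistake, is counted among the 35. The edgeR test called 0 of the 35, where 1.02% of all genes were called, and DESeq2 called 1, where it called 3.76% of all genes. Their median log2 fold change was 0.24, beside 0.00038 over all genes. Without overlap between strains, 7 were higher in SHR (20% of 35, where 8.97% of all genes were) and 2 were lower (5.71% of 35, where 8.49% of all genes were). Edn3 and Gucy1a1 were among the 7 and Nos3 among the 2. The lists were chosen with earlier results of these data known, so these values are descriptions only.

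At an unadjusted p of 0.05 or less edgeR had 5 of the 35, all higher in SHR, beside 5.11% of all genes. Among them were Edn3, Nostrin, Arg2 and Enpep. Edn3, Nostrin and Enpep passed the count filter through SHR alone, and such a filter favours genes that are higher in SHR. Nostrin, which controls the trafficking of the Nos3 protein, was 2.51 ± 0.383 CPM (SD, n = 3) in BN-Lx and 4.33 ± 0.238 CPM (SD, n = 3) in SHR.

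Without SHR 1 and BN-Lx 3, edgeR called 10 of the 35, and 28.8% of all genes. Among the 10 were Ece1, Nostrin and Gucy1a2, higher in SHR, and Ddah2, Spr, Ass1, Gucy1b1, Pde1b and Pde6d, lower in SHR. The locus of Ddah2 also held Clic1. None of the 4 genes described here was among them. The share was close to that of all genes.

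In the endothelin list, 2 of 10 symbols were measured, Edn3 and Ece1. Ece1, endothelin-converting enzyme, which releases the active peptide, was 50.4 ± 6.17 CPM in BN-Lx and 53.3 ± 7.17 CPM in SHR (SD, n = 3 each). Its log2 fold change was 0.08 (SE 0.15, edgeR adjusted p = 0.897). Edn1, another ligand, and the receptor genes Ednra and Ednrb were not analysed here.

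In the natriuretic peptide list, 6 of 12 symbols were measured and none passed the test. Npr1, the receptor that makes cGMP on binding atrial natriuretic peptide, was 10.4 ± 4.26 CPM in BN-Lx and 13.5 ± 6.17 CPM in SHR (SD, n = 3 each). Npr2, the receptor of C-type natriuretic peptide, was 39.4 ± 14.5 CPM and 31.4 ± 6.64 CPM (SD, n = 3 each). Npr3, the clearance receptor, was 14.04 ± 8.004 CPM and 19.3 ± 8.89 CPM (SD, n = 3 each). The log2 fold changes of the 6 ran from -0.33 to 0.64, with Nppa at the top.

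In the nitric oxide list, 12 loci were tested, 4 with a positive log2 fold change, and their median was -0.13. Arg2, an arginase that uses the same substrate as the synthase, was 30.5 ± 1.91 CPM in BN-Lx and 36.9 ± 2.42 CPM in SHR (SD, n = 3 each, edgeR adjusted p = 0.463). Cav1, caveolin-1, which binds and restrains the Nos3 protein, was 21.4 ± 0.650 CPM and 27.8 ± 5.36 CPM (SD, n = 3 each, edgeR adjusted p = 0.498). In the cGMP list, 11 loci were tested and 7 had a positive log2 fold change. The 11 include Ccdc136, which stood in the list by mistake and had its lowest log2 fold change, at -0.80 (SE 0.48, edgeR adjusted p = 0.656). Pde5a, a phosphodiesterase that degrades cGMP, was 20.7 ± 5.74 CPM and 20.1 ± 6.07 CPM (SD, n = 3 each).

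In the renin-angiotensin list, 4 of 15 symbols were measured. Enpep, aminopeptidase A, which trims angiotensin II and is also found on pericytes, was 3.62 ± 0.361 CPM in BN-Lx and 6.12 ± 1.19 CPM in SHR (SD, n = 3 each, edgeR adjusted p = 0.309). The part of mural cells, with the marker values given above, in the level of Enpep was not tested. Atp6ap2 and Agtrap had log2 fold changes of -0.01 and -0.11.

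**Figure D5:**
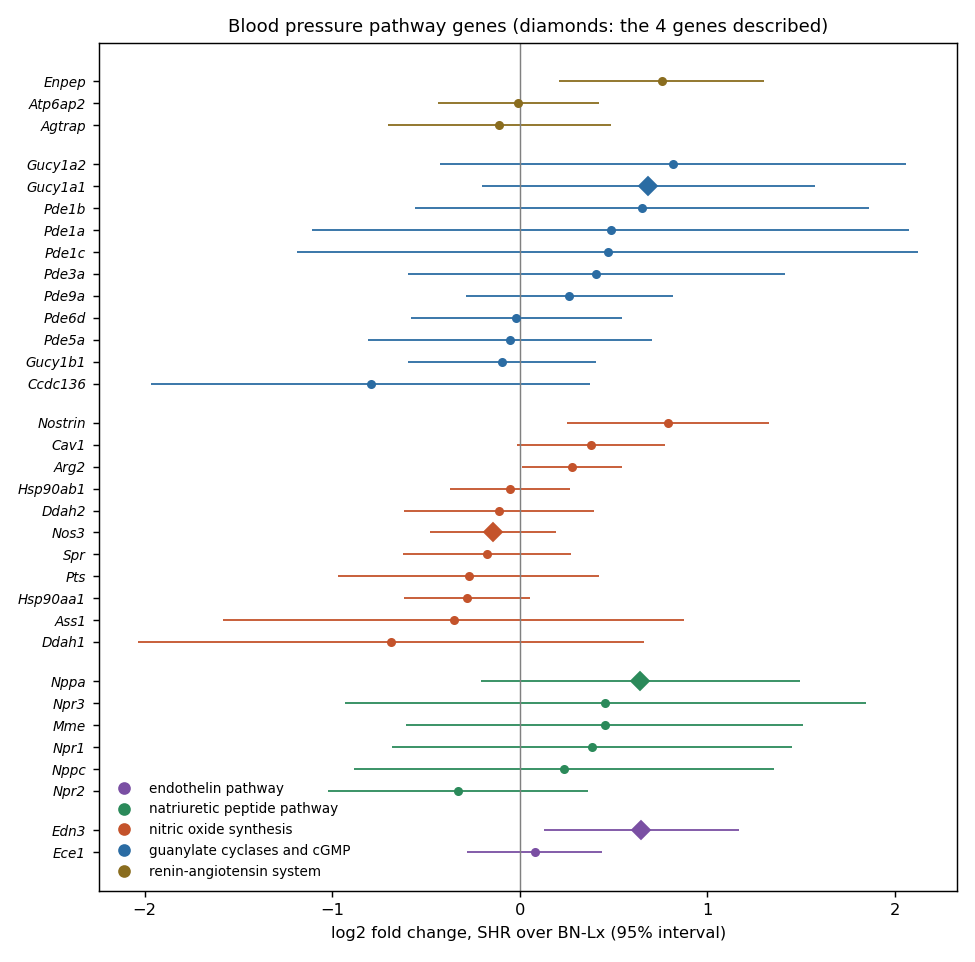
Log2 fold change of SHR over BN-Lx with its 95% interval for loci tested in the 5 pathway lists, coloured by list, with diamonds for Edn3, Nppa, Nos3 and Gucy1a1. Ccdc136 is shown in the cGMP list, where it stood by mistake. Edn3, Nostrin, Arg2 and Enpep had intervals above 0, and none of the loci shown passed the edgeR test after adjustment over all genes.

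No other annotated locus overlapped any of the 4 genes, and none of those tested within 100 kb was called by edgeR. The nearest locus to Nppa was Clcn6, a chloride transporter gene 2110 bases away on the opposite strand, with a log2 fold change of -0.07 (SE 0.18). The nearest to Nos3, 8789 bases away, held Abcb8, Asic3 and Slc4a2 in 1 locus, with a log2 fold change of -0.06. The nearest tested locus to Edn3, STRG.15584, lay 48778 bases before it, with a log2 fold change of 0.68 (SE 0.79). Agtrap, which binds the angiotensin receptor, lay 77107 bases from Nppa.

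The named genes whose pattern over the 6 libraries was most like each of the 4 were ranked by the root mean square difference of centred log2 CPM, among genes of at least 5 CPM. For Edn3 these were AABR07064980.1 (0.08), Slc7a11 (0.10) and Angptl2 (0.10). For Gucy1a1 they were Dgkb (0.09), a diacylglycerol kinase gene that is abundant in striatum, Otof (0.13) and RGD1564664 (0.14). Dgkb was 155, 147 and 74.8 CPM in BN-Lx and 281, 154 and 167 CPM in SHR, with the same highest and lowest library as Gucy1a1. For Nppa they were Ly6h (0.17), Arl15 (0.17) and RGD1563354 (0.17), and for Nos3 Rarg (0.04), Bclaf3 (0.04) and Eif3j (0.04). Among the 4 genes themselves the closest pair was Gucy1a1 and Nppa (0.28). With 6 libraries that share depth and strain, these are descriptions only.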

How the data were processed

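Per the labels and the study's methods, the authors sequenced an unstranded library from each rat, mapped the reads with HISAT2 onto strain-specific versions of rn6, and built 1 transcriptome for both strains from the pooled alignments. StringTie 1.3.5 assembled it with Ensembl as guide, aptardi supplied further 3′ ends, and RSEM estimated abundances. The part of sequence differences between strains in these estimates was not tested. The deposited values are expected counts per locus and isoform, not normalized, and TPM, scaled within each library by the authors' RSEM run. The deposited FPKM and the percent of each isoform were not analysed.

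Expected counts were rounded, filtered at 50 in 2 of 3 libraries of a strain and entered into edgeR 4.0.16, run in R 4.3.3 (TMM factors, strain as the only term, BN-Lx as reference, two-sided). CPM use the same factors. Usage was tested with diffSpliceDGE. Scripts were tested on simulated data. Ratios and shares were compared by exact permutation with scipy 1.17.1. Alternatives were DESeq2 1.42.0, other size factors and filters, limma 3.58.1 on log2 TPM with a pseudocount of 1 or 0.1, a block for the replicate number, and libraries left out. Genes were named as all loci and isoforms of the 4 genes, fixed partners, every list member called, neighbouring loci within 100 kb and the 3 genes of most similar pattern; the other list members and markers named were chosen after their values were seen. Some list members are counted but not reported here. The members, the 13 gene lists and the rule were chosen with earlier results of these data known. Totals limit precision as counting error only, and the depth is lowest in BN-Lx 2 and 3.

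The marker lists gave these results beside those in the report. Of 12 choroid plexus markers 5 were tested, with sums from 8.28 to 178 CPM in BN-Lx and from 11.5 to 137 CPM in SHR, and Sostdc1 was at 0 in BN-Lx 2 and SHR 2. Of 14 brain cell markers 7 were tested, with sums from 6984 to 7740 CPM in BN-Lx and from 4909 to 6114 CPM in SHR. None of the pituitary, heart muscle and blood markers was named.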

Additional observations from a re-analysis of the deposited data

How the results depend on the processing

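Edn3, Nppa, Nos3 and Gucy1a1 were called in none of the 15 alternatives run for each, and none changed direction. Their log2 fold changes ran from 0.53 to 0.76 for Edn3 (adjusted p from 0.114 to 0.848), from 0.30 to 0.94 for Nppa (0.425 to 1.00), from -0.20 to -0.06 for Nos3 (0.582 to 1.00) and from 0.12 to 0.88 for Gucy1a1 (0.226 to 0.989). With the replicate number as a block they were 0.65, 0.68, -0.14 and 0.75.

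The number of genes called moved from 147 to 543 with DESeq2, to 0 with the replicate block by edgeR (1192 at an unadjusted p of 0.05 or less), to 4172 without SHR 1 and BN-Lx 3, and to between 12 and 156 when 1 library was left out (14, 38 and 156 without BN-Lx 1, 2 and 3, and 128, 12 and 36 without SHR 1, 2 and 3). Isoforms called moved from 324 to 1166 with DESeq2, 48 with the replicate block, 944 without both libraries and 183 to 400 with 1 left out. Loci called for usage moved from 338 to 172 with limma on voom weights, 1781 without both libraries and 204 to 577 with 1 left out. The Nos3 transcript STRG.15928.5 turned from -0.07 to 0.044 with the replicate block, and ranged from -0.42 to 0.16 with 1 library left out, with positive values of 0.16 without BN-Lx 1, 0.14 without BN-Lx 2 and 0.09 without SHR 1. The cause of these shifts was not tested.

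Same-numbered libraries of the strains had correlations of deviations of -0.04, 0.32 and -0.20. Libraries of unlike number were not compared, so these values do not settle whether the numbers pair the rats. Counts of 25 to 46 for Edn3 and Nppa in BN-Lx 2 and 3 limit what can be seen of these genes.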
